A study of Caenorhabditis elegans with 8 samples.

Results

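The genes described here are those for making ribosomes in the nematode Caenorhabditis elegans, together with subunits of RNA polymerase I. They were picked by gene name, and no measured value entered the rule, although earlier results of these data were known. Of the 17826 genes in the deposited table, 35 carried one of the names. The names nola, mak-16, natc-10 and tsr-2 of the same rule are not analysed here. All 35 members passed the filter on low values, a mean of at least 0 log2 CPM (reads scaled to library size, on a log2 scale), as did 12382 genes in all. The mRNAs came from whole worms of strain N2, the laboratory wild type, on day 1 of adulthood, with about 1000 worms put on plates per the labels' protocol. One group of 4 libraries had been given 50 µM zidovudine, an antiretroviral thymidine analogue, for 24 h from larval stage 4, and the other group of 4 the DMSO vehicle. Per the labels' protocol, worded alike for both groups, the plates held an agent written as 5-fluorouracil as well. Worm studies of adults often use the related fluorodeoxyuridine to stop progeny, and whether the label means that compound is not settled by the sources used here. The series' title names reduced translation as one of its subjects, and the comparison asks whether the mRNAs behind ribosome production differ with the drug.

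RNA polymerase I copies the ribosomal DNA into one long precursor inside the nucleolus. Small nucleolar ribonucleoproteins (snoRNPs) guide methylation and pseudouridylation of that precursor, and a long series of assembly factors cuts it, folds it and loads ribosomal proteins, giving the small and the large subunit. Growing oocytes and intestinal cells of worms hold large nucleoli, and nucleolar size is a common readout of ribosome production. The ribosomal RNA itself was not measured, because the libraries were made from RNA captured on oligo-dT beads.

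The 8 libraries held 30449021 to 56930820 reads assigned to genes, and the least read member still had 301 reads in its lowest library. No label ties the samples to cultures of their own, so p-values rest on a spread between samples that may be technical. Sample descriptions put DMSO 4 alone on a second flow cell, apart from the remaining 7 libraries, so flow cell and library cannot be told apart. In it 8.24% of all genes had 0 reads, and in the others 1.07% to 2.17%. Markers of the main worm tissues were read only where they passed the filter on low values. All listed markers did so except among the sperm markers, where 31 of 36 did. None of the tested markers passed the adjusted threshold. All 8 oocyte markers were above 0, with a median of 0.11 (log2 fold change, zidovudine minus DMSO throughout), and their summed level ran from 8877 to 10286 CPM with DMSO and from 9430 to 11508 CPM with zidovudine. The 10 markers of germ line stem cells and meiosis had a median of 0.0051, and summed levels of 3479 to 3771 and 3427 to 3963 CPM. Of 31 sperm markers, most of them near-identical msp copies, 30 were below 0 (median -0.41) and 17 were lower at an unadjusted p under 0.05, with summed levels of 224 to 328 and 172 to 249 CPM. Intestine markers were above 0 in 7 of 7 (median 0.099), body wall muscle markers in 3 of 4 (0.13), neuron markers in 3 of 5 (0.035) and pharynx markers in 3 of 3 (0.41). All 3 pharynx markers, 1 neuron marker and 1 sperm marker were higher at an unadjusted p under 0.05 in limma, beside 6.28% of all genes. With the dependence of each library on exon length taken out, the medians were 0.081 for oocyte, -0.037 for germ line, -0.12 for sperm (24 of 31 below 0, 2 lower at an unadjusted p under 0.05), 0.011 for intestine (3 of 7 below 0), 0.030 for body wall muscle, 0.018 for neuron and 0.31 for pharynx markers. The part of tissue content in the values of the ribosome genes was not tested. In bulk samples fewer cells of a type and less RNA per cell cannot be told apart.

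On a scale of reads per kb of exon corrected for library size (RPKM), the mRNA levels of the members spanned 82.1-fold in the DMSO worms. At the top was fib-1, the gene of fibrillarin, which methylates ribosomal RNA within the box C/D snoRNPs, at 747 ± 30.5 RPKM (SD, n = 4). The other core proteins of those particles followed, nol-58 at 253 ± 14.1 and nol-56 at 233 ± 9.5. The catalytic core of RNA polymerase I was far lower, with rpoa-2 at 38.5 ± 1.6 and rpoa-1 at 20.3 ± 1.9. The lowest members were tsr-1 at 11.4 ± 1.2 and cgr-1 at 9.1 ± 2.1. Only 9 of the 34 neighbouring pairs in this order had DMSO libraries that did not overlap, so most neighbours cannot be ranked. The clear steps lay below fib-1, between nol-56 and nst-1, between lpd-7 and nog-1, and between pro-1 and riok-1, among others. On the scale not corrected for length, 34 of the 35 members lay above the middle of the tested genes.

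**Figure D1:**
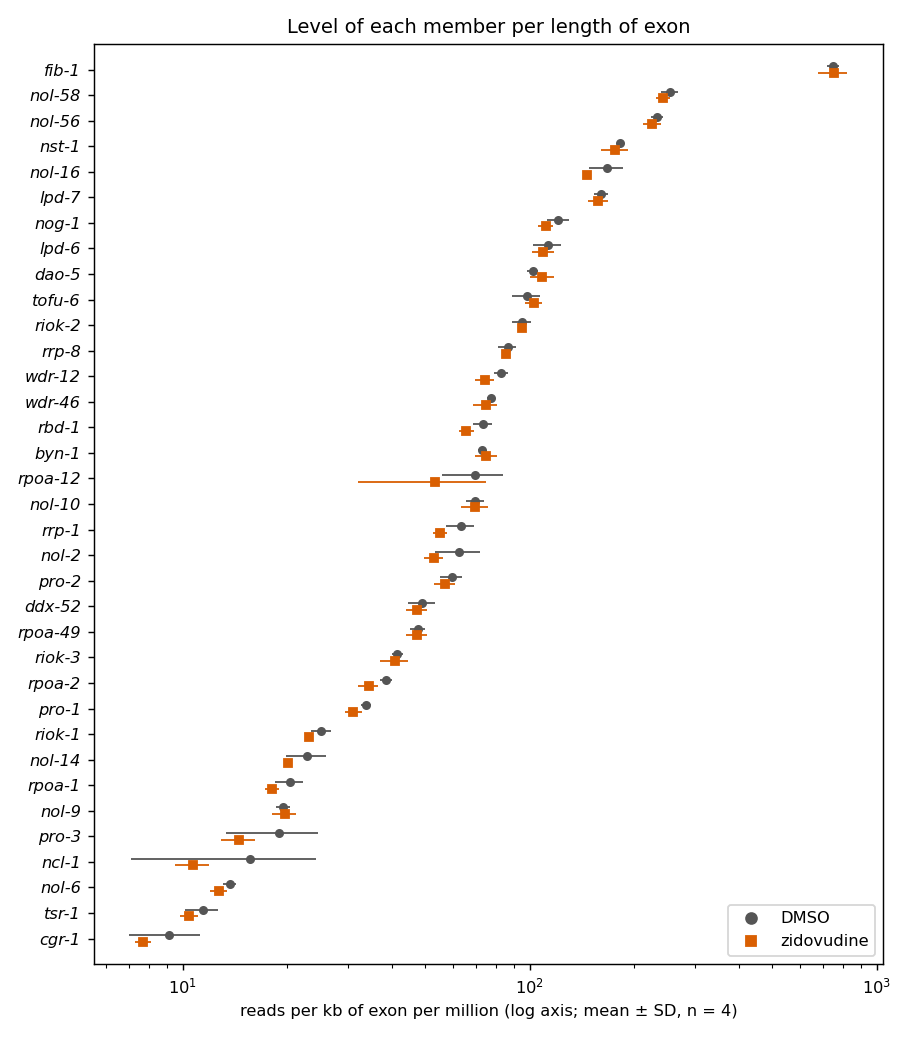
Level of each member in RPKM (reads scaled to kb of exon and library size, log axis), with circles for DMSO and squares for zidovudine (mean ± SD, n = 4 each). fib-1 stands apart at 747 with DMSO, and the order runs down to cgr-1 at 9.1, with both groups close together for most members.

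None of the 35 members differed between the groups at an adjusted p under 0.05 (limma-trend, adjusted over all 12382 genes). A second limma method, voom on the recovered reads, also called 0 members. It had 7 members (20%) lower at an unadjusted p under 0.05, beside 6.37% of all genes. Over all genes 21 passed, 0.17% of those tested, 7 of them higher and 14 lower. Leaving out any 1 of the 8 libraries moved one of these counts by over 1.5 times, to between 1 and 17 higher and between 3 and 28 lower. The direction of the members was uneven. Of the 35, 30 were below 0, and the median log2 fold change was -0.068. Over all tested genes 47.7% were below 0, with a median of 0.0082. At an unadjusted p under 0.05, 7 members (20%) were lower and 0 higher, beside 5.48% of all genes lower and 6.28% higher. In 4 members (11.4%) every zidovudine library lay below every DMSO library, while the opposite held for 0. Over all genes these patterns held for 2.82% and 3.84%. Members vary together and were chosen with earlier results known, so these shares are descriptions. Without DMSO 4, 25 members were below 0, beside 49.3% of all genes, and 2 (5.71%) were lower at an unadjusted p under 0.05, a share near the 4.59% of all genes. Without the variance trend in limma it was also 2 (5.71%), near 5.08% of all genes.

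The differences were small. The 95% interval of the log2 fold change stayed inside a 1.5-fold change in either direction for 32 of the 35 members, and inside a 1.2-fold change for 21. The 3 wide ones were rpoa-12, ncl-1 and pro-3, whose libraries scattered most. The median SD within a group was 0.094 log2 units for the members and 0.11 for the 7310 tested genes in the same range of level.

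**Figure D2:**
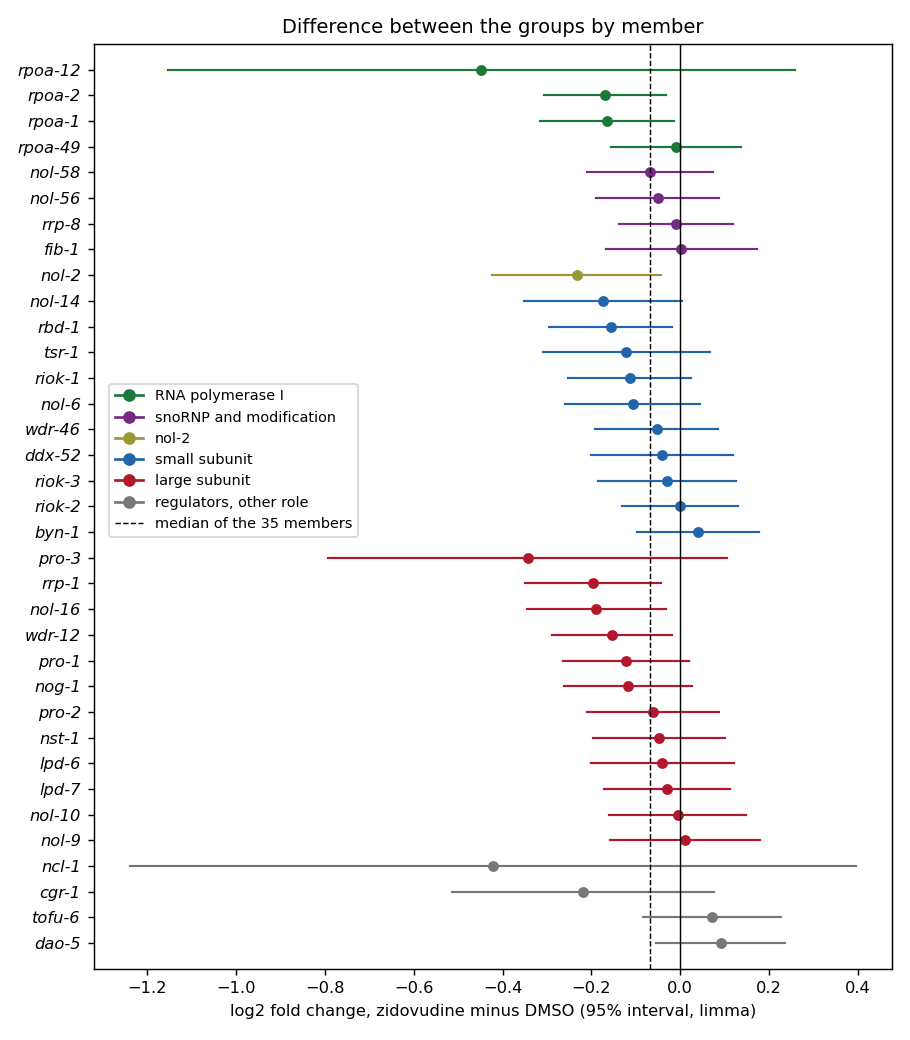
Log2 fold change of each member, zidovudine minus DMSO, with its 95% interval from limma, coloured by role, and the members' median of -0.068 as a dashed line. Points lie left of 0 for 30 of 35 members, and the intervals of rpoa-12, ncl-1 and pro-3 are the widest.

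All 4 members named as subunits of RNA polymerase I were below 0, at a median of -0.17 (log2 fold change), and none passed the adjusted threshold. rpoa-2 (WBGene00008781; chromosome I, 9280923 to 9286576 in WBcel235, protein coding) encodes the second largest subunit, which with the largest one forms the active centre. It stood at 7.15, 7.18, 7.14 and 7.27 log2 CPM in DMSO 1 to 4 and at 6.99, 6.88, 7.09 and 7.10 in zidovudine 1 to 4. All 4 zidovudine libraries were thus below all 4 DMSO libraries. The zidovudine mean of 7.02 ± 0.10 log2 CPM was 11% below the DMSO mean of 7.19 ± 0.059 (SD, n = 4 per group), a difference short of the threshold (log2 fold change -0.17, SE 0.065, limma adjusted p = 0.32, unadjusted 0.0193).

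The largest subunit is encoded by rpoa-1 (WBGene00012999; chromosome II, 13670626 to 13694795). It was at 6.74, 6.75, 6.86 and 7.03 log2 CPM with DMSO and at 6.60, 6.67, 6.75 and 6.71 with zidovudine. The groups touched, since zidovudine 3 reached the level of DMSO 1 and DMSO 2, and DMSO 4 was the highest library. Its log2 fold change was -0.16 (SE 0.071, limma adjusted p = 0.389, unadjusted 0.0344), and -0.10 without DMSO 4. rpoa-12, whose yeast counterpart is the small subunit for transcript cleavage, was at 4.89, 5.03, 4.76 and 5.40 log2 CPM with DMSO and 4.75, 5.28, 4.19 and 4.06 with zidovudine. Its difference of -0.45 (SE 0.30, limma adjusted p = 0.589) rested on zidovudine 3 and zidovudine 4, and zidovudine 2 lay above 3 of the DMSO libraries. With 471 nt of exon it is the shortest member, and it ranged from -0.68 to -0.28 when 1 library was left out. rpoa-49, counterpart of a yeast subunit that helps initiation and elongation, was at 6.04, 5.99, 6.09 and 6.15 log2 CPM with DMSO and 6.04, 5.92, 6.13 and 6.14 with zidovudine. Its groups overlapped throughout (log2 fold change -0.010, 95% interval -0.16 to 0.14). It shares 103 nt of exon with rpt-4 on the opposite strand.

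The snoRNP proteins and the methyltransferase rrp-8 were the flattest group. By the plan it did not hold nol-2, another counterpart of a methyltransferase, which is described below. fib-1 (WBGene00001423; chromosome V, 15000651 to 15002223) was at 9.92, 10.004, 10.07 and 10.02 log2 CPM with DMSO and 9.80, 10.04, 10.14 and 10.05 with zidovudine. The zidovudine libraries covered the whole DMSO range on both sides. Its log2 fold change was 0.0024, with a 95% interval of -0.17 to 0.17 (limma adjusted p = 0.995). nol-56 (-0.051) and nol-58 (-0.068), the scaffold proteins that hold fibrillarin on its guide RNA, gave adjusted p-values of 0.769 and 0.695 in limma. rrp-8, whose human counterpart methylates an adenosine of the large subunit RNA, was at -0.0099 (limma adjusted p = 0.963).

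nol-2, named nsun-1 in Ensembl, is the counterpart of a human cytosine methyltransferase of the large subunit RNA, NOP2. It was at 6.97, 7.04, 6.99 and 7.40 log2 CPM with DMSO and 6.79, 6.87, 6.99 and 6.81 with zidovudine. DMSO 4 was far above the rest, and zidovudine 3 lay within the range of the other DMSO libraries. The log2 fold change was -0.23 (SE 0.089, limma adjusted p = 0.324, unadjusted 0.0202), and -0.13 without DMSO 4. Its value is uncertain, since 1299 nt or 58.8% of its exon sequence lies opposite exons of W07E6.5 and, although the library kit keeps strand, no source here says whether reads were counted by strand. W07E6.5 itself was lower in level, 2.36 to 2.53 log2 CPM with DMSO and 2.62 to 2.97 with zidovudine, and lay in the other direction (log2 fold change 0.37, limma adjusted p = 0.281).

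Of the 10 members that work on the small subunit, 9 were below 0 (median log2 fold change -0.080), and none passed the adjusted threshold. rbd-1 (WBGene00004315; chromosome IV, 12724986 to 12730095), an RNA-binding protein needed to process the precursor of the small subunit RNA, was at 7.64, 7.55, 7.63 and 7.77 log2 CPM with DMSO. With zidovudine it was at 7.54, 7.39, 7.55 and 7.49, and all 4 libraries were below all 4 DMSO libraries, by a narrow margin between DMSO 2 and zidovudine 3. The log2 fold change was -0.16 (SE 0.065, limma adjusted p = 0.369, unadjusted 0.0290), and -0.12 without DMSO 4.

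nol-14, counterpart of a yeast factor of the early processing complex, was at 5.79, 5.93, 5.92 and 6.23 log2 CPM with DMSO and 5.77, 5.83, 5.76 and 5.81 with zidovudine. The 4 zidovudine libraries were tightly grouped, and DMSO 1 lay among them (log2 fold change -0.17, SE 0.084, limma adjusted p = 0.434), and the value was -0.086 without DMSO 4. Other factors of that complex in yeast have counterparts here in nol-6 at -0.11, wdr-46 at -0.052 and the RNA helicase ddx-52 at -0.040. wdr-46 shares 154 nt of exon with atz-1 on the opposite strand. Late steps, after export to the cytoplasm, need the atypical kinases of the RIO family. riok-1 was at 6.01, 6.12, 6.20 and 6.23 log2 CPM with DMSO and 6.01, 6.04, 6.04 and 6.01 with zidovudine. Its zidovudine libraries lay at the level of DMSO 1 and below DMSO 2 to 4 (log2 fold change -0.11, SE 0.065, limma adjusted p = 0.517). riok-2 had equal means of 7.41 log2 CPM in both groups (log2 fold change -4.1e-05, 95% interval -0.13 to 0.13). riok-3 was at -0.030 and tsr-1, whose yeast counterpart acts on the same late particle, at -0.12, or -0.061 without DMSO 4 (limma adjusted p = 0.889 and 0.601 with all libraries). byn-1, the worm bystin, was the member above 0, at 0.040 (limma adjusted p = 0.819).

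Of the 12 members in the large subunit group, 11 were below 0 (median log2 fold change -0.089), and none passed the adjusted threshold. rrp-1 (WBGene00008151; chromosome IV, 9980734 to 9982276), counterpart of a yeast protein needed for the large subunit RNA, had the smallest p of all members. It was at 6.38, 6.27, 6.29 and 6.55 log2 CPM with DMSO and 6.25, 6.09, 6.21 and 6.16 with zidovudine. The groups did not overlap, and the zidovudine mean was 12.7% lower (log2 fold change -0.20, SE 0.072, limma adjusted p = 0.303, unadjusted 0.0158). DMSO 4 was the highest library of rrp-1, and without it the log2 fold change was -0.14. nol-16, counterpart of a yeast nucleolar protein of the same particle, was at 6.92, 6.69, 6.68 and 6.99 log2 CPM with DMSO. Its zidovudine libraries, at 6.65, 6.61, 6.65 and 6.62, were all below (log2 fold change -0.19, SE 0.074, limma adjusted p = 0.331, unadjusted 0.0216). DMSO 2 and DMSO 3 lay close to that group, and the distance came mostly from DMSO 1 and DMSO 4. Without DMSO 4 the log2 fold change of nol-16 was -0.13.

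wdr-12 and lpd-7 encode partners in one complex, counterparts of human WDR12 and pescadillo, and their values were unlike. wdr-12 was at 6.99, 6.85, 6.84 and 6.90 log2 CPM with DMSO and 6.72, 6.73, 6.86 and 6.65 with zidovudine. Zidovudine 3 alone reached the DMSO range (log2 fold change -0.15, SE 0.064, limma adjusted p = 0.370, unadjusted 0.0293), and the value was also -0.15 without DMSO 4. lpd-7 was at -0.030, with a 95% interval of -0.17 to 0.11. Whether the partners differ from each other was not tested.

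The pro genes were first known from worms with defects in germ line proliferation. pro-1 was at 5.89, 5.89, 5.80 and 5.82 log2 CPM with DMSO and 5.83, 5.64, 5.71 and 5.74 with zidovudine, where zidovudine 1 alone was inside the DMSO range (log2 fold change -0.12, SE 0.066, limma adjusted p = 0.487). pro-2, counterpart of a yeast nucleolar complex protein, was at -0.061, and at -0.010 without DMSO 4. pro-3 was at 5.72, 5.78, 5.98 and 6.58 log2 CPM with DMSO and 5.62, 5.62, 5.89 and 5.54 with zidovudine. Its difference of -0.34 (SE 0.19, limma adjusted p = 0.533) was led by DMSO 4 and was -0.16 without it. pro-3 shares 440 nt of exon with zhp-4 on the same strand, which was at -0.020.

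The nucleolar GTPases nog-1 and nst-1, the latter the worm nucleostemin, were at -0.12 and -0.049, and nog-1 was at -0.070 without DMSO 4. nog-1 and rrp-8 are neighbours on chromosome IV, on the same strand with gene spans that overlap by 10 nt. rrp-8 was at -0.0099, and whether these neighbours differ from each other was not tested. lpd-6, counterpart of a yeast protein for processing of the large subunit precursor, was at -0.040, and the RNA kinase gene nol-9 at 0.011. nol-10 was at -0.0060. It was placed in this group, although its yeast counterpart is counted among small subunit factors. In limma their adjusted p was lowest for nog-1 (0.518) and highest for nol-10 (0.982).

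**Figure D3:**
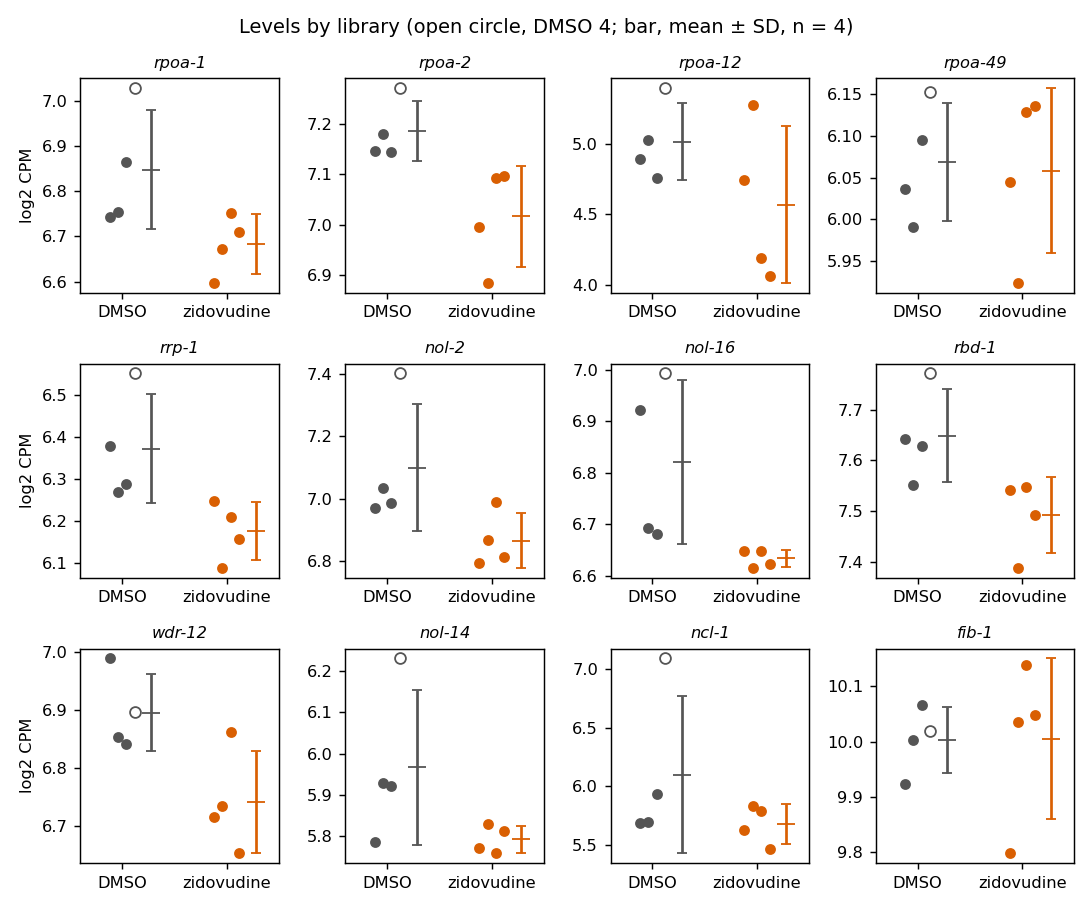
Log2 CPM of 12 members in each library, DMSO in grey with DMSO 4 as an open circle and zidovudine in orange, with mean ± SD beside the points (n = 4 each; every panel has its own axis). The groups are apart in rpoa-2, rrp-1, nol-16 and rbd-1, overlap fully in rpoa-49 and fib-1, and DMSO 4 lies far above the rest in ncl-1 and nol-2.

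The remaining 4 members are nucleolar regulators or genes known for other work, with 2 above 0 and 2 below. ncl-1 encodes a B-box protein of the Brat family that limits nucleolar size and fibrillarin in worms. It was at 5.69, 5.69, 5.93 and 7.09 log2 CPM with DMSO and 5.62, 5.83, 5.79 and 5.47 with zidovudine. Apart from DMSO 4, which was 2.50-fold above the other DMSO libraries, the groups overlapped. The log2 fold change was -0.42 (SE 0.34, limma adjusted p = 0.650) with all libraries and -0.091 without DMSO 4. dao-5, a nucleolar phosphoprotein related to mammalian Nopp140, had means of 8.33 ± 0.052 (DMSO) and 8.42 ± 0.11 log2 CPM (zidovudine; SD, n = 4 each; log2 fold change 0.091, limma adjusted p = 0.612). tofu-6 belongs to a worm complex for small RNAs and embryogenesis and cgr-1 encodes a CRAL/TRIO and GOLD domain protein of Ras signalling, so neither is known as a ribosome factor. They were at 0.071 and -0.22, and without DMSO 4 at 0.017 and -0.070. Leaving out ncl-1, tofu-6 and cgr-1 gave 28 of 32 members below 0, with a median of -0.064.

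Many members varied together within the groups. Over the 8 libraries, the deviation of a member from its group mean had a median Pearson correlation of 0.64 with the mean deviation of the other members, with 19 of the 35 members above 0.5 and 6 below 0. The other 12347 tested genes had a median of -0.031 with the mean deviation of the members, and 16.9% of them were above 0.5. Without DMSO 4 the medians were 0.58 and 0.033, with 22 members (62.9%) and 27.1% of the other genes above 0.5. These points share library and depth, and no p is attached to them. The correlation was highest for pro-3 at 0.91, nol-2 at 0.90 and rpoa-1 at 0.90, and lowest for rrp-8 at -0.67 and tofu-6 at -0.41. DMSO 4 minus the mean of DMSO 1 to 3 was 0.75, 0.40 and 0.24 log2 units for pro-3, nol-2 and rpoa-1. For rrp-8 and tofu-6 it was -0.099 and -0.22. The weight of DMSO 4 in these named correlations was not tested. The joint variation was uneven across libraries. Set against each gene's mean over all libraries, the members were on average 0.18 log2 units high in DMSO 4 and 0.095 low in zidovudine 2, with 30 and 4 of the 35 members above their own mean. The other 6 libraries lay between -0.067 (zidovudine 1) and 0.030 (DMSO 3), and zidovudine 3 and zidovudine 4, at -0.012 and -0.037, overlapped with DMSO 1 at -0.022. Together the members took 0.560% to 0.618% of the scaled reads with DMSO and 0.541% to 0.586% with zidovudine.

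**Figure D4:**
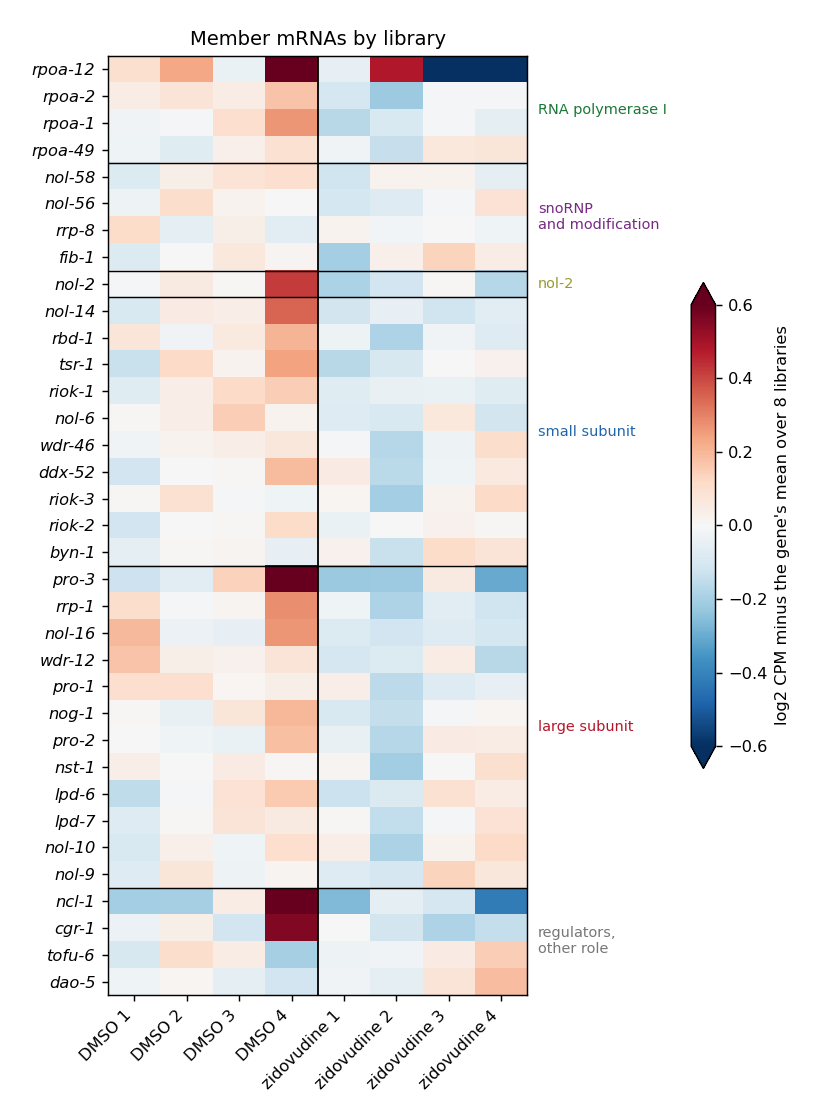
Log2 CPM of each member in each library minus that gene's mean over the 8 libraries, red above and blue below, with members grouped by role and the scale ending at 0.6 in both directions. DMSO 4 is red in most rows, with 30 of 35 members above their own mean, and zidovudine 2 is blue in most, with 4 of 35 above.

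DMSO 4 was the highest DMSO library for 22 of the 35 members (62.9%), and for 31.9% of all tested genes. The median member stood 0.12 log2 units higher in DMSO 4 than in the mean of DMSO 1 to 3, where all genes had a median of -0.018. Oocyte markers went the other way in that library, with 0 of 8 above DMSO 1 to 3 and a median of -0.19, while sperm markers (25 of 31 above, median 0.41) and ribosomal protein genes (78 of 80 above, median 0.24) were mostly high there too. Without DMSO 4, which leaves values from a single flow cell, the members' median was -0.059 and that of all genes 0.0023. Of the role groups, RNA polymerase I then had a median of -0.12, small subunit factors -0.052, large subunit factors -0.062 and the snoRNP group -0.040. The 2 members lower at an unadjusted p under 0.05 were then rpoa-2 (log2 fold change -0.14, unadjusted p = 0.0485 in limma) and wdr-12 (-0.15, 0.0362).

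The libraries also differed in how mRNA level tracked with exon length, and the members are longer than average, with a median of 1811 nt of exon against 1438 nt for all tested genes. Genes of 2000 to 5000 nt had a median log2 fold change of 0.052, where the 13 members of that length had -0.12. Genes of 1000 to 2000 nt had a median of 0.015 and the 19 members there one of -0.040. With that length dependence taken out library by library, 32 of 35 members were below 0 (49.4% of all genes) and the median was -0.099. In that setting 11 members (31.4%) were lower at an unadjusted p under 0.05, beside 6.09% of all genes. None passed the adjusted threshold in limma, and the lowest adjusted p was 0.119. rpoa-1 was then at -0.26 (unadjusted p = 0.0023 in limma) and rpoa-2 at -0.24 (0.000616), while rpoa-12 moved from -0.45 to -0.18 and the short nol-16 from -0.19 to -0.083.

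**Figure D5:**
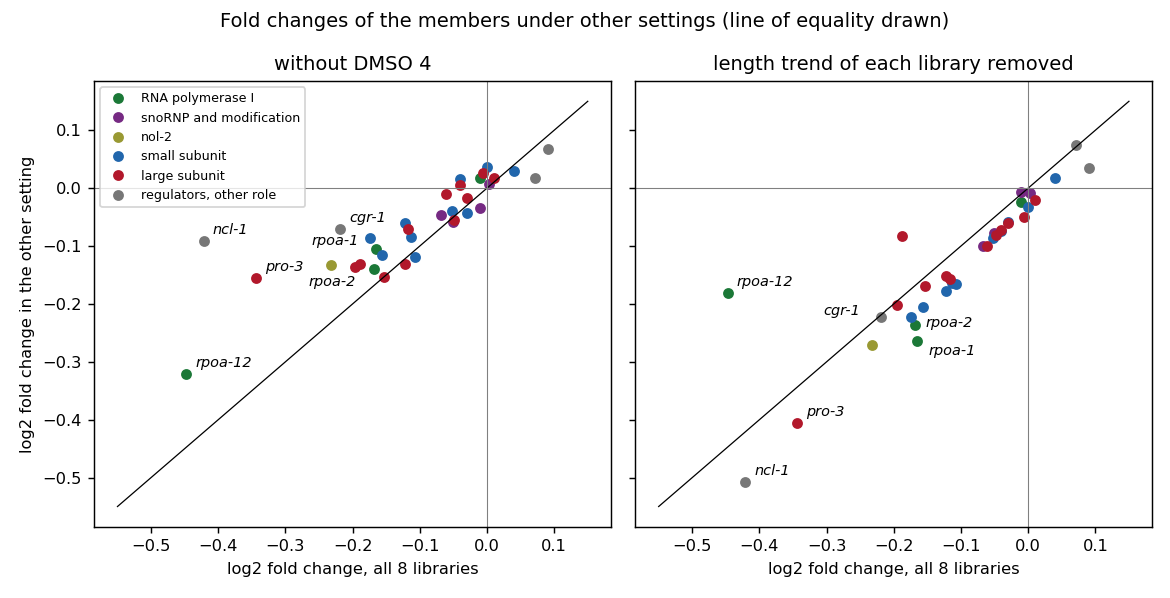
Log2 fold change of each member without DMSO 4 (left) and with the length trend of each library removed (right), against the value from all 8 libraries, with the line of equality. On the left ncl-1, pro-3 and cgr-1 move toward 0, from -0.42 to -0.091 for ncl-1; on the right most points lie below the line, while rpoa-12 moves from -0.45 to -0.18.

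A list of 26 other genes of ribosome production, all tested, had 18 members below 0 and 8 above, and their median log2 fold change was -0.040. None passed the adjusted threshold, and 2 were lower at an unadjusted p under 0.05 (7.69%), a share near the 5.48% of all genes. These were rpac-19, a subunit shared by RNA polymerases I and III, and sbds-1, counterpart of the human gene of Shwachman-Diamond syndrome, which releases a factor from the new large subunit. rpac-19 was at 6.68, 6.51, 6.50 and 6.86 log2 CPM with DMSO and 6.33, 6.45, 6.12 and 6.03 with zidovudine, with no overlap (log2 fold change -0.41, SE 0.10, limma adjusted p = 0.163, unadjusted 0.00201). sbds-1 was at 6.39, 6.43, 6.59 and 6.78 with DMSO and 6.31, 6.22, 6.17 and 6.34 with zidovudine, also with no overlap (log2 fold change -0.29, SE 0.082, limma adjusted p = 0.185, unadjusted 0.00292). With the length trend removed they were at -0.21 and -0.27. The other listed subunit shared by polymerases I and III but not II, rpac-40, was at -0.13 (limma adjusted p = 0.518).

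By function, 6 of 8 genes of the RNA exosome and its cofactors were below 0 (median -0.041) and 6 of 7 further assembly factors (-0.041). Of 5 genes of mixed function, nsun-4, nsun-5, xrn-2, xpo-1 and larp-1, 1 was below 0 (0.020). Among them xrn-2 encodes an exoribonuclease, and the human counterpart of nsun-4 acts in mitochondria. Of the polymerase III subunits 3 of 4 were below 0, with the large ones rpc-1 and rpc-2 at 0.057 and -0.013 and the small ones rpc-25 and rpc-11 at -0.075 and -0.40. With the length trend removed rpc-11 was at -0.090. Among the 11 genes named as subunits of RNA polymerase II, 10 were below 0, with a median of -0.18 and a median exon length of 594 nt. With the length trend removed that median was -0.026 (6 of 11 below 0). Of these genes, rpb-5, rpb-6, rpb-8, rpb-10 and rpb-12 are counterparts of subunits common to RNA polymerases I, II and III. The list is thus not separate from polymerase I. Those genes were at -0.10, -0.12, -0.20, -0.63 and -0.36, and with the length trend removed at -0.030, 0.21, -0.026, -0.21 and 0.069. The 80 tested genes of cytosolic ribosomal proteins, with a median of 521.5 nt of exon, had 77 below 0 and a median of -0.14, which became 0.019 (37 of 80 below 0) with the trend removed. The members' median was -0.068 before and -0.099 after. Whether these lists differ from one another was not tested.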

How the data were processed

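Polyadenylated RNA of 8 whole-worm samples was sequenced, 4 per group. The authors deposited 1 table, whose columns are CPM per the file headers but hold log2 CPM, with values down to -4.39, the same floor in all 8 columns. Tools listed in the submitters' processing notes are HISAT2 2.1.0, Trimmomatic 0.32, FastQC, limma 3.40.6, edgeR 3.26.8 and HTSeq 0.11.0. For the genome build, annotation and strand setting the entry is: not given in the sources used here. Subtracting the floor on the linear scale gave whole reads for 100% of values below 20000 reads within 0.05 reads, with a prior of 2 reads at the mean library. Libraries of a group differed by a chi-square per degree of freedom of 15.1 to 72.2, so none repeated another.

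Limma-trend (limma 3.58.1, R 4.3.3, robust, two-sided, 6 residual degrees of freedom) was run on genes averaging 0 log2 CPM or more, with Benjamini-Hochberg adjustment over 12382 genes and a threshold of 0.05. It was checked on simulated data in which genes varied independently, so the joint variation seen among the members was not part of that check. A count model was planned for recovered reads and was not run. The deposited unit is log2, but whole reads had been recovered, so the unit itself did not prevent it. The prior understates fold changes of genes with few reads. Exon lengths (union of exons) and positions came by gene ID from Ensembl release 115 on WBcel235, for 12376 of these genes. Levels per length used the recovered reads and the authors' effective library sizes. The length trend was removed per library with lowess (span 0.3). Every member is named, with values by library for RNA polymerase I, fib-1, ncl-1, the 10 members of smallest p and a few others added after their values were seen. Members, lists and role groups were chosen with earlier results of these data known. Alternatives were other scalings, filters and priors, no variance trend, sample weights, a replicate block, left-out libraries, length correction and, added after seeing the data, voom on the recovered reads.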

Additional observations from a re-analysis of the deposited data

Results flagged for a closer look

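One member value stood apart from its group. nol-2 was at 7.40 log2 CPM in DMSO 4, while DMSO 1 to 3 lay between 6.97 and 7.04, so the gap took up 0.849 of the range of the group. Chance sets apart about 1 in 20 groups of 4, or 3.5 of the 70 member groups examined, and 1 was found. The role of the other flow cell in this value was not tested. ncl-1 in DMSO 4 lay further off in log2 units, at 7.09 beside 5.69 to 5.93 in DMSO 1 to 3, but did not pass the rule.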

How the results depend on the processing

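No member passed the adjusted threshold in any of the 19 other settings. The members' median log2 fold change stayed below 0 throughout, between -0.11 and -0.042, and 21 to 32 members were below 0. Members lower at an unadjusted p under 0.05 numbered 2 without the variance trend (5.71%, beside 5.08% of all genes). There were 4 with sample weights (11.4%, beside 7.78%) and 2 without DMSO 4 and zidovudine 2 together (5.71%, beside 9.67%). With the length trend removed there were 11 (31.4%, beside 6.09%). With 1 library left out the count ran from 2 without DMSO 4 (5.71%, beside 4.59%) to 7 (20%). The 7 came without DMSO 1, DMSO 2 or zidovudine 3, beside 4.96%, 5.45% and 3.6% of all genes. Without zidovudine 2 there were 5 (14.3%, beside 10.1%), and without zidovudine 4 also 5 (14.3%, beside 3.39%). Counts of all genes past the threshold were less stable. Higher genes numbered 2 without the trend, 1 with the replicate block, 74 with sample weights, 49 without DMSO 4 and zidovudine 2, and 1 to 17 with 1 library left out. Lower genes numbered 2 without the trend, 8 with a filter at 1 log2 CPM, 7 with library totals as the only scaling, 8 with the replicate block, 74 with sample weights, 107 without DMSO 4 and zidovudine 2, and 3 to 28 with 1 library left out. Deviations of same-numbered libraries of the groups had correlations of 0.067, -0.18, 0.14 and -0.32 for numbers 1 to 4. The largest correlation of each zidovudine library with a DMSO library of another number was 0.061, 0.37, 0.16 and 0.29. So few values cannot settle whether same-numbered libraries belong together. With the replicate block 6 members were at an unadjusted p under 0.05 (17.1%, beside 4.93%) and 0 passed. Of 665 member values in other settings, 45, from 13 members whose log2 fold change was at most 0.061 in size, changed sign, and the cause was not tested. With sample weights these were lpd-6 0.0054, pro-2 0.0054, ddx-52 0.011, riok-2 0.021, nol-10 0.040 and rpoa-49 0.040. Without DMSO 4 and zidovudine 2 they were fib-1 -0.0025, nst-1 0.0075, wdr-46 0.0096, riok-3 0.020, lpd-6 0.027, lpd-7 0.027, riok-2 0.035, pro-2 0.036, rpoa-49 0.062, ddx-52 0.065 and nol-10 0.089. Library totals gave fib-1 -0.0066, quantile normalization rpoa-49 0.0035, voom (chosen after seeing the data) riok-2 0.000146, and the length correction nol-9 -0.021 and fib-1 -0.0081. With 1 library left out, the ranges were -0.098 to 0.0052 for lpd-6, -0.064 to 0.014 for lpd-7, -0.046 to 0.056 for nol-10, -0.033 to 0.046 for nol-9, -0.088 to 0.013 for nst-1, -0.037 to 0.034 for rpoa-49, -0.086 to 0.017 for ddx-52, -0.038 to 0.036 for riok-2, -0.073 to 0.034 for riok-3, -0.042 to 0.071 for fib-1 and -0.035 to 0.025 for rrp-8. The count models and the promoter search that had been planned were not run. Each member had 301 reads or more in every library, and the effect of depth on the intervals was not tested.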
